A study of Drosophila melanogaster with 6 samples.

Results

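The genes described here encode proteins of the myosin-containing thick filament of striated muscle. Others encode giant elastic proteins that lie along it or tie it to the Z-disc, and LIM-domain proteins of muscle. The list holds 10 genes, *Mhc*, *Mlc1*, *Mlc2*, *Prm*, *fln*, *Mf*, *bt*, *sls*, *Mlp60A* and *Mlp84B*, and its probe sets were those named to exactly 1 of them. That gave 15 of the 15131 probe sets on the array, for 9 of the 10 genes, and none was shared with another gene. No probe set was named to *Mhc*, the muscle myosin heavy chain, in the annotation used, so *Mhc* was not analysed here. Of the 15 probe sets, 13 averaged at least 4 on the log2 scale across the arrays and were tested, among 10286 tested in all. The other 2, both of *Mlp60A*, were at the floor.

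RNA came from 6 pools of *Drosophila melanogaster* heads, each of 75 to 100 heads, which the labels describe as female flies of the strain Canton S. There were 3 pools at an age of 10 days and 3 at 40 days, with no genetic change or treatment named in the labels for either age. Each pool was an independent biological replicate per the labels, and was hybridised to an Affymetrix 3′ expression array. Values are log2 expression levels, so a difference of 1 is a doubling, and levels of different probe sets are not compared with each other because probes differ in brightness.

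In a muscle sarcomere, myosin motors on the thick filament pull on actin thin filaments that are anchored at the Z-disc. In flies the thick filament is built on a core of paramyosin, and the *sls* products run between it and the Z-disc as elastic links. Projectin lies along the A-band in most fly muscles and at the I-band in flight muscle. Flightin, encoded by *fln*, binds the myosin rod and is best known from the indirect flight muscles of the thorax, where flies lacking it cannot fly. A head holds small muscles of its own, such as those of the mouthparts, but no indirect flight muscle.

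The labels and the marker genes were not in full accord. Of 9 male accessory gland genes all were bright, with a list mean between 13.58 and 14.45 on single arrays, while 6 of 7 ovary and egg genes lay under 4. Testis markers also had a high list mean, between 12.90 and 13.09, as did gut proteases, between 13.87 and 14.54. Photoreceptor genes were present, with a list mean between 12.14 and 12.36. The 4 neuronal markers with a probe set averaged 5.87 to 6.07 and were mixed. *elav* averaged 8.71 and 8.62 at 10 and 40 days, and *nSyb* 8.25 and 8.01. *brp* averaged 4.94 and 4.93 on its brightest probe set, and *para*, a neuronal sodium channel gene, lay under 4. The samples are therefore called 10-day and 40-day samples, without the tissue. Both genes fixed as flight muscle markers, *Act88F* and *TpnC4*, were above the filter in all samples. The arrays had medians between 7.51 and 7.53, and correlated at 0.974 to 0.992 over the tested probe sets. Samples carrying the same replicate number at both ages deviated together, so for each member probe set differences within the numbers, or the adjusted p from the blocked fit, stand beside the age comparison.

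No member passed the test between the ages, but most were higher in the 40-day samples while *fln* was lower. By limma with Benjamini-Hochberg adjustment over all tested probe sets, 0 of 13 member probe sets differed between 40 and 10 days, where 0.34% of all tested probe sets did. With the replicate number as a block in the model the count was again 0 of 13, against 1.92% of all. At an unadjusted p under 0.05, 7 of 13 were counted without the block, 6 higher and 1 lower, against 13.1% of all tested probe sets. With the block 9 of 13 were, 7 higher and 2 lower, against 25.1%. With 1 sample left out, the count of 7 ran from 3, without day 10 replicate 3, to 8, without day 10 replicate 1. It was 4 without both samples of number 2. The shares of all tested probe sets in these smaller fits are not given here.

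The median log2 difference, 40 minus 10 days, was 0.17 over the 13 probe sets, beside 0.0070 over all those tested. The mean was higher at 40 days for 10 of them, where 51.8% of all tested probe sets had a higher mean at 40 days. The ages did not overlap for 7 of 13, 6 of them higher and 1 lower at 40 days. Over all tested probe sets the ages did not overlap for 19.8%, and were apart and higher at 40 days for 11.4% and lower for 8.42%. Within all 3 replicate numbers, 7 of the 13 were higher at 40 days and 3 were lower, where 26.1% and 23.2% of all tested probe sets were. In these bulk samples, fewer cells of a type and less RNA per cell cannot be told apart.

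**Figure D1:**
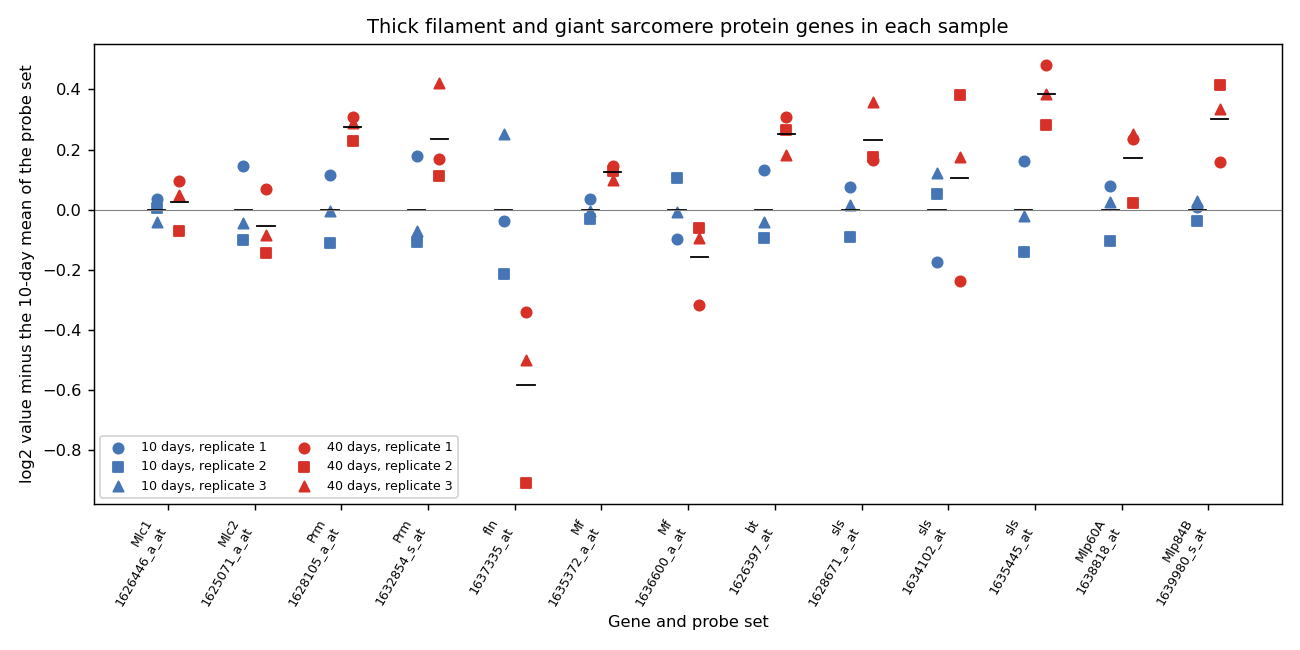
Each tested probe set of the member genes (horizontal axis) in every sample, as the log2 value minus the mean of its 10-day samples (vertical axis); blue is 10 days, red is 40 days, the symbol gives the replicate number and the black line the mean of the age. The red symbols of *fln* lie below all its blue ones, by 0.58 in the mean, and those of 6 other probe sets lie above all their blue ones.

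The samples with replicate number 2 were often the lowest of their age. The 10-day sample of number 2 was lowest for 10 of 13 member probe sets, and the 40-day sample of that number for 7. The 10-day sample of number 1 was highest for 9, and the 40-day sample of number 1 for 7. Shares over all tested probe sets were not computed, so these counts are not read as a trait of the members. In the plot of differences between the ages, the intervals of all 13 probe sets are narrower with the block than without it.

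The 2 myosin light chain genes showed the smallest differences among the 9 genes measured, taken on the brightest probe set of each. *Mlc1* encodes the essential light chain of muscle myosin, which stiffens the lever arm of the motor. Its levels were 13.88, 13.85 and 13.80 at 10 days and 13.94, 13.77 and 13.89 at 40 days, in the order of replicate numbers 1, 2 and 3. The ages overlapped, and the difference was 0.02 ± 0.06 (log2 ± SE, n = 3 each; limma adjusted p = 0.896, and 0.788 with the block), with a 95% interval from -0.13 to 0.17. *Mlc2* encodes the regulatory light chain, whose phosphorylation tunes the contraction of fly muscle. It measured 12.74, 12.49 and 12.55 at 10 days and 12.66, 12.45 and 12.51 at 40 days. Each 40-day sample was slightly below the 10-day sample of its number, by 0.04 to 0.08, while the ages as a whole overlapped. The difference was -0.05 ± 0.09 (limma adjusted p = 0.842, and 0.483 with the block), with a 95% interval from -0.28 to 0.18. Missing the threshold does not show that the ages were equal for either gene.

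*Prm*, which encodes paramyosin and, from an internal promoter, miniparamyosin, was higher at 40 days on its brighter probe set. Probe set 1628105_a_at read 12.61, 12.38 and 12.48 at 10 days and 12.80, 12.72 and 12.78 at 40 days. All 40-day samples lay above all 10-day samples. The means were 12.49 ± 0.11 and 12.77 ± 0.04 (SD, n = 3 each), a difference of 0.28 ± 0.07 (SE), or 1.21-fold. Within numbers 1, 2 and 3 the difference was 0.19, 0.34 and 0.29. It missed the threshold without the block (limma adjusted p = 0.263) and with it (0.0724). The dimmer probe set, 1632854_s_at, read 10.58, 10.30 and 10.33 at 10 days and 10.57, 10.51 and 10.82 at 40 days. Here the ages overlapped and the number 1 samples were nearly level, and the difference was 0.23 ± 0.12 (limma adjusted p = 0.460, and 0.252 with the block). The suffix _s_at marks probes that, in the maker's naming, can match transcripts of more than 1 gene.

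*Mf* encodes myofilin, a protein of the thick filament core, and its 2 probe sets went opposite ways. On 1635372_a_at the levels were 14.77, 14.70 and 14.73 at 10 days and 14.88, 14.86 and 14.83 at 40 days. The ages did not overlap, though the difference was only 0.12 ± 0.04 (SE; limma adjusted p = 0.335, and 0.129 with the block), because the samples of each age were within 0.03 (SD) of their mean. On 1636600_a_at the levels were 13.90, 14.11 and 13.99 at 10 days and 13.69, 13.94 and 13.91 at 40 days. Every 40-day sample was below the 10-day sample of its number, by 0.09 to 0.22, while the ages overlapped. That difference was -0.16 ± 0.09 (limma adjusted p = 0.505, and 0.129 with the block).

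The gap between the *Mf* probe sets was itself compared between the ages. The brighter minus the dimmer gave 0.86, 0.59 and 0.73 at 10 days and 1.19, 0.92 and 0.92 at 40 days. The gap was wider in every 40-day sample, by 0.28 in the mean and by 0.33, 0.33 and 0.19 within numbers 1, 2 and 3, and the exact two-sided permutation test gave p = 0.10 (n = 3 each), the smallest this design allows. Adjusted over the 5 such gaps computed for *Mf*, *Prm* and *sls*, p was 0.50. For the other 4 gaps the ages overlapped, and exact permutation p lay between 0.20 and 0.70. Which transcripts each probe set detects was not analysed here.

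**Figure D2:**
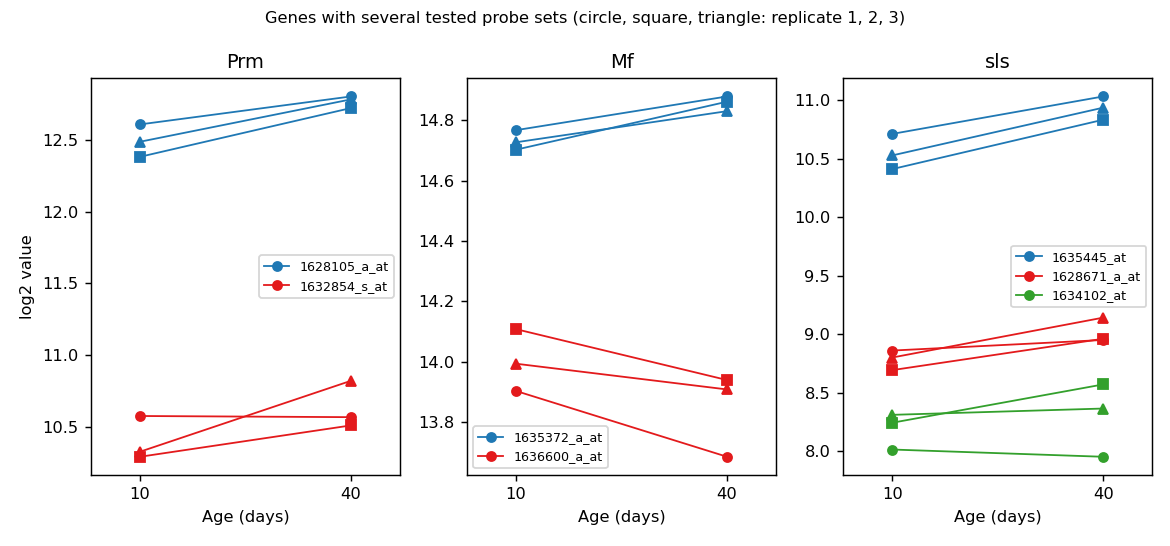
Log2 values (vertical axis) of all tested probe sets of *Prm*, *Mf* and *sls* at 10 and 40 days (horizontal axis); each line joins the 2 samples with the same replicate number, the symbol gives that number, and each colour is a probe set. The 2 probe sets of *Mf* run apart, at 0.12 and -0.16, while those of *sls* run from 0.11 to 0.38. Lines join different pools, not the same flies.

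Both giant protein genes read higher at 40 days, and *sls* gave the highest difference of the list. *bt* encodes projectin, a titin-like kinase that lies along the A-band in most fly muscles and at the I-band in flight muscle. It measured 13.04, 12.81 and 12.87 at 10 days and 13.22, 13.17 and 13.09 at 40 days. The ages did not overlap, and the difference was 0.25 ± 0.08 (SE), or 1.19-fold (limma adjusted p = 0.310, and 0.0867 with the block). Within numbers 1, 2 and 3 it was 0.18, 0.36 and 0.22.

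*sls* encodes Sallimus and its shorter form kettin, which bind actin near the Z-disc and give resting stiffness, and it was represented by 3 probe sets. The brightest, 1635445_at, read 10.71, 10.41 and 10.53 at 10 days and 11.03, 10.83 and 10.93 at 40 days. The ages were apart, and within numbers 1, 2 and 3 the difference was 0.32, 0.42 and 0.41. The mean difference was 0.38 ± 0.10 (SE), or 1.30-fold, the highest of the 13 probe sets, with 309 of the 10286 tested probe sets at least as high. Its adjusted p was 0.260 by limma without the block and 0.0514 with it, just over the threshold of 0.05. Probe set 1628671_a_at read 8.86, 8.69 and 8.80 at 10 days and 8.95, 8.96 and 9.14 at 40 days. The ages were apart here too, by 0.23 ± 0.09 in the mean (limma adjusted p = 0.351, and 0.164 with the block). Probe set 1634102_at read 8.01, 8.24 and 8.31 at 10 days and 7.95, 8.57 and 8.36 at 40 days. Its ages overlapped, the number 1 samples went the other way from number 2, and the difference was 0.11 ± 0.17 (limma adjusted p = 0.829, and 0.542 with the block).

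Both LIM-domain protein genes read higher at 40 days, with separate ages for *Mlp84B* alone of the 2 genes. *Mlp84B* encodes a muscle LIM protein that works together with Sallimus in keeping muscle intact. Its levels were 11.88, 11.84 and 11.90 at 10 days and 12.03, 12.29 and 12.21 at 40 days. All 40-day samples were above all 10-day samples, and the 10-day samples were close, with an SD of 0.04 against 0.13 at 40 days. The difference was 0.30 ± 0.08 (SE), or 1.23-fold (limma adjusted p = 0.263, and 0.103 with the block), on a probe set that also ends in _s_at. Within numbers 1, 2 and 3 it was 0.15, 0.45 and 0.30.

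*Mlp60A* encodes a shorter muscle LIM protein. Its bright probe set, 1638818_at, measured 13.73, 13.55 and 13.68 at 10 days and 13.89, 13.68 and 13.91 at 40 days. The 40-day sample of number 2 lay inside the 10-day range, but each 40-day sample was above the 10-day sample of its number, by 0.13 to 0.23. The difference was 0.17 ± 0.09 (limma adjusted p = 0.457, and 0.108 with the block). Its other probe sets, 1626709_at and 1629885_at, were at 2.06 to 2.07 in all 6 samples, the floor of the table, and give no information on age.

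**Figure D3:**
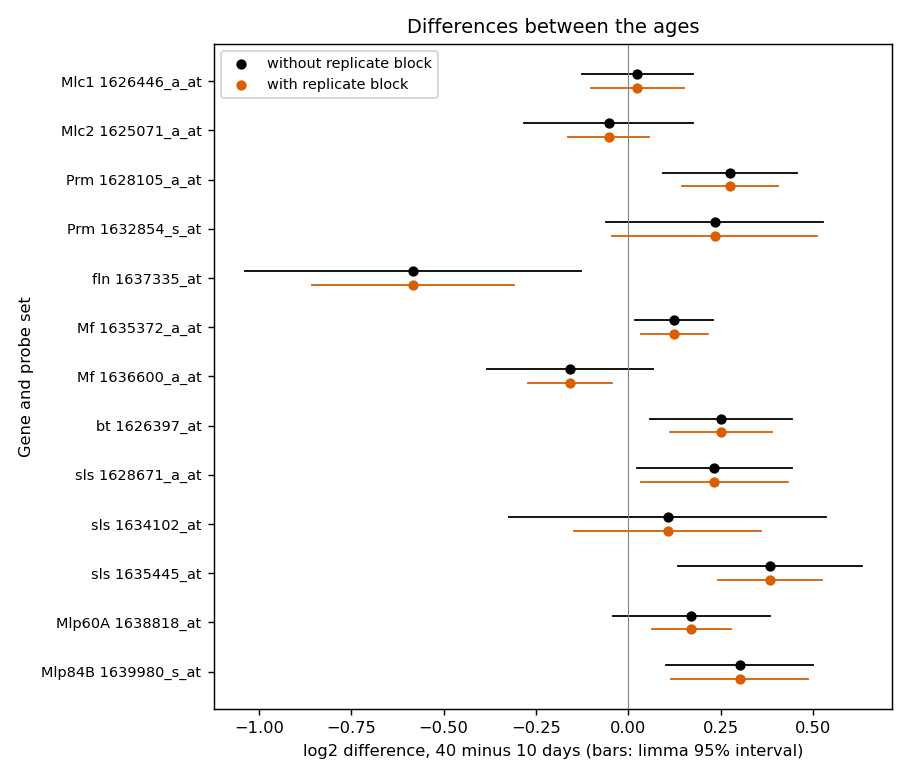
Log2 difference between 40 and 10 days (horizontal axis) for each tested probe set (vertical axis), with limma's 95% interval without the replicate block in black and with it in orange. *fln* stands on the negative side at -0.58 and the brightest *sls* probe set highest at 0.38; intervals are not adjusted for the number of probe sets.

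Flightin had the lowest difference of the list, and *fln* was the 1 member gene whose 40-day samples all lay below its 10-day samples. *fln* measured 10.54, 10.36 and 10.82 at 10 days and 10.24, 9.67 and 10.07 at 40 days. The 40-day sample of number 2 was the lowest of the 6, and the ages did not overlap. The means were 10.57 ± 0.23 and 9.99 ± 0.29 (SD, n = 3 each), so the level at 10 days was 1.50-fold that at 40 days. The difference was -0.58 ± 0.19 (SE), with adjusted p = 0.312 by limma without the block and 0.0724 with it. Within numbers 1, 2 and 3 it was -0.30, -0.69 and -0.75. Of all tested probe sets, 2.15% were at least as low.

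The other 8 genes, taken as a median, read higher at 40 days. The median of their brightest probe sets was 12.89, 12.65 and 12.71 at 10 days and 13.01, 12.94 and 12.93 at 40 days. It was higher at 40 days within each number, by 0.12, 0.29 and 0.23. The *fln* value minus this median was -2.35, -2.29 and -1.88 at 10 days and -2.77, -3.28 and -2.86 at 40 days, and only the change in it can be read, since it sets different probes side by side. The ages did not overlap. The change was -0.80 in the mean, and -0.42, -0.99 and -0.98 within numbers 1, 2 and 3. Leaving out any 1 sample gave a change between -0.89 and -0.64. No p is given for this contrast, which is a score over genes chosen with earlier results of these data known.

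Genes on the list fixed as flight muscle genes did not share 1 direction. The list of 6 comprised *fln*, *Act88F*, *TpnC4*, *Strn-Mlck*, *Act79B* and *salm*. It includes *Act79B* although that is an actin gene of leg and jump muscles. By limma 0 of 6 passed, with or without the block, and 3 lay above and 3 below 0. Without the block 3 had an unadjusted p under 0.05, against 13.1% of all tested probe sets. With it 4 did, against 25.1%. *TpnC4*, the troponin C form of stretch-activated flight muscle, read 11.90, 11.80 and 12.35 at 10 days and 11.75, 11.19 and 11.28 at 40 days. Its ages were apart, with 40 days lower in all samples, and the difference was -0.61 ± 0.21 (limma adjusted p = 0.326, and 0.138 with the block). *Act88F*, the actin gene of the indirect flight muscle, read 9.13, 9.33 and 8.97 at 10 days and 10.00, 9.56 and 9.54 at 40 days. It was apart in the opposite direction, at 0.56 ± 0.16 (limma adjusted p = 0.274, or 0.103 when blocked), though actin genes are closely alike in sequence. *Act79B* gave 0.20 ± 0.09 (limma adjusted p = 0.390, and 0.0941 with the block), with overlapping ages.

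**Figure D4:**
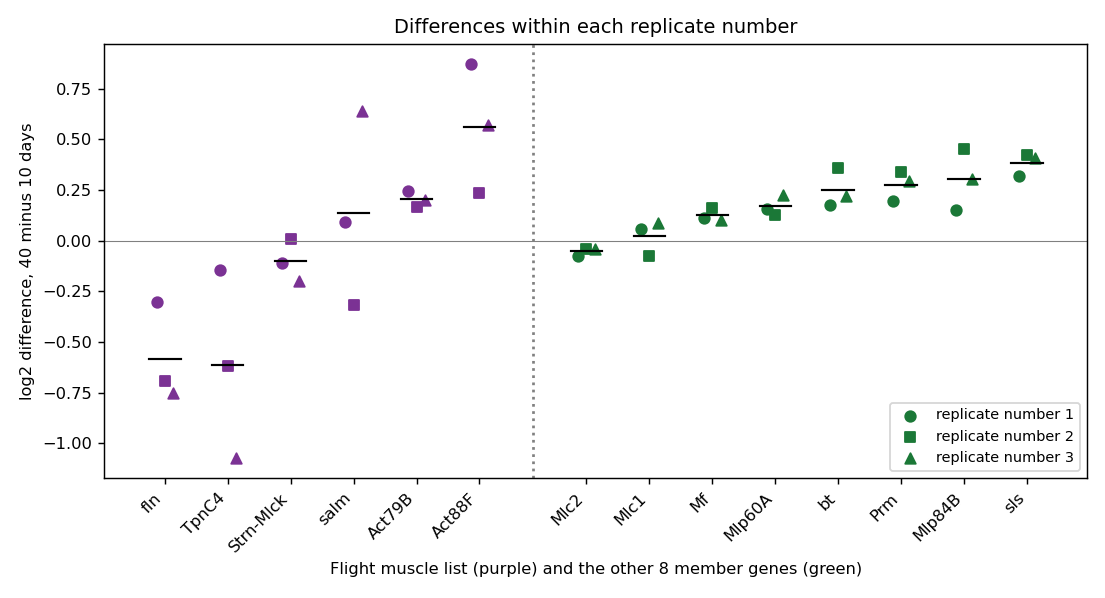
Log2 difference between 40 and 10 days (vertical axis) within each replicate number (symbols), with the mean as a black line, for the brightest probe set of each gene of the flight muscle list (purple) and of the other 8 member genes (green). *fln* and *TpnC4* lie below 0 in all 3 numbers and *Act88F* and *Act79B* above, and 6 of the 8 other members lie above 0 in all 3 numbers.

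Likeness to *fln* over the 6 samples was ranked over the 9277 tested probe sets named to 1 gene, with members left out. With so many probe sets and only 6 samples, some very high correlations arise for any gene. Nothing is therefore concluded from which genes came first. Among tested probe sets named to 1 gene, the highest Pearson correlations with *fln* were those of *Torsin* (0.996), *Der-1* (0.990), *Galphaf* (0.989), *CG4783* (0.984) and *bcn92* (0.981), which are given as a measure of likeness over 6 samples that share ages and replicate numbers. *TpnC4* reached 0.955 on that measure. The other member probe sets lay between -0.86 for *Mlp84B* and 0.49 for *Mlc2*. With the age means removed, sarcomere genes ran both ways. *Act79B* gave 0.917, *TpnC4* 0.881, *TpnC73F* 0.871 and *Mlp60A* 0.811. Among those on the negative side, *up* gave -0.963, *TpnC41C* -0.948 and the dimmer *Mf* probe set -0.662. *Act79B*, *TpnC73F* and *Mlp60A* had higher means at 40 days, while *fln* had a lower one.

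For the bright probe set of *Mf*, the likeness in the same search was highest for *Hrb98DE* (0.996), *Moe* (0.993), *CG32112* (0.993), *RpL22-like* (0.990) and *GstD5* (0.987). Among members *bt* followed it most closely, at 0.979 and at 0.981 with the age means removed. *Prm* on its brighter probe set was at 0.957, and *sls* on its brightest at 0.953. With the age means removed these became 0.761 and 0.776. In the gene order of RefSeq (assembly Release 6), no 2 of the 10 genes are neighbours, the nearest being *Mlc1* and *Mlc2* with 332 genes between them.

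The rest of the sarcomere gave differences from -0.61 to 0.60. Of 21 other sarcomere genes tested, 0 passed by limma without the block, against 0.34% of all tested probe sets. An unadjusted p under 0.05 was found for 6, against 13.1% of all. Above 0 lay 12 and below it 9, with a median of 0.12, where 51.8% of all lay above. With the block 2 passed, both higher, against 1.92% of all. With it 9 had an unadjusted p under 0.05, against 25.1%. *Act87E*, a muscle actin gene, read 12.63, 12.58 and 12.60 at 10 days and 12.98, 12.98 and 12.99 at 40 days, on a probe set ending in _s_at. Its ages were well apart, by 0.38 ± 0.05 (SE; limma adjusted p = 0.0655, and 0.0366 with the block). *TpnC73F*, a troponin C gene, gave 0.60 ± 0.15 (limma adjusted p = 0.247, and 0.0416 with the block). *CG1674* lay the other way at -0.43 ± 0.10 (limma adjusted p = 0.209), and its second probe set gave -0.47 ± 0.33.

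Genes that act beside the sarcomere gave differences from -0.06 to 0.17. Among 9 tested chaperones, attachment proteins and regulators of muscle, 0 passed by limma with or without the block, and the median was 0.02. Without the block 0 had an unadjusted p under 0.05, against 13.1% of all tested probe sets, and with it 2 did, against 25.1%. *rhea*, which encodes talin of the muscle attachment sites, gave 0.14 ± 0.06 (limma adjusted p = 0.427). The integrin subunit gene *mys* gave 0.17 ± 0.10 (limma adjusted p = 0.499), and *stv*, a cochaperone gene of Z-disc maintenance, gave -0.06 ± 0.09 (limma adjusted p = 0.835).

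Of the nonmuscle and unconventional myosin genes listed, 5 were tested and 0 passed by limma with or without the block. None of the 5 had an unadjusted p under 0.05 (0 of 5, also with the block), and their median was 0.06. Of all tested probe sets 13.1% did without the block and 25.1% with it. *Myo95E* gave 0.18 ± 0.11, *Myo10A* -0.13 ± 0.14, *Mhcl* 0.06 ± 0.09 and *Myo28B1* 0.19 ± 0.47 (limma adjusted p between 0.532 and 0.896). The difference between these lists and the thick filament genes was not tested.

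**Figure D5:**
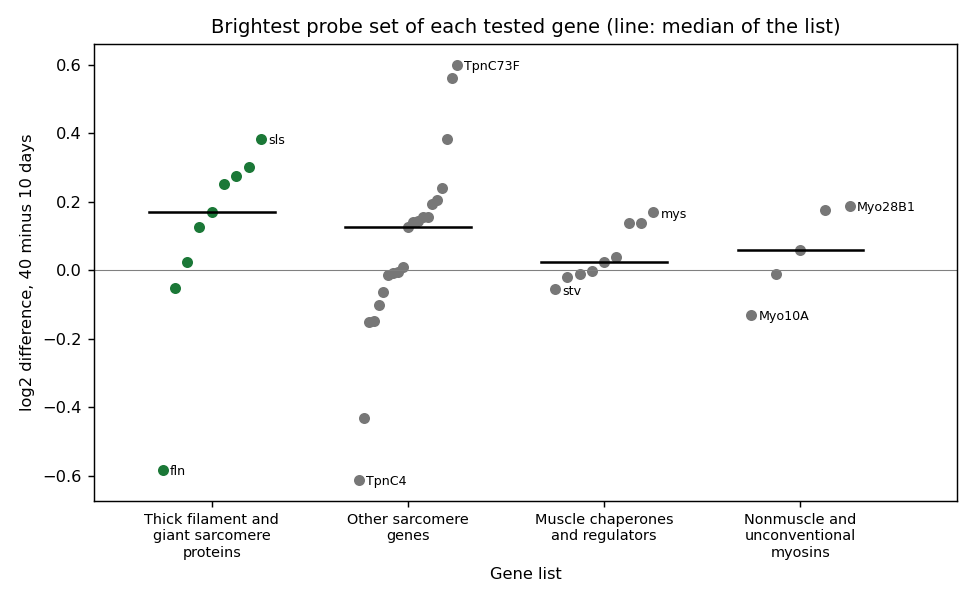
Log2 difference between 40 and 10 days (vertical axis) of the brightest probe set of each tested gene, by gene list (horizontal axis); the black line is the median of the list. The thick filament and giant protein genes have a median of 0.17 with *fln* far below at -0.58, and the other sarcomere genes run from *TpnC4* at -0.61 to *TpnC73F* at 0.60.

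The 4 muscle markers measured outside the list, *Act87E*, *Tm2*, *up* and *Zasp52*, all lay above 0, where 51.8% of all tested probe sets did. By limma 0 of 4 passed without the block, against 0.34% of all, and 1, *Act87E*, with it, against 1.92%. Only *Act87E* had an unadjusted p under 0.05 without the block, against 13.1% of all. The wider list of other sarcomere genes, which holds these 4, had 9 of 21 below 0. The mean level of the 4 was 12.32 to 12.45 in the 10-day samples and 12.58 to 12.63 in the 40-day samples. The member genes without *fln* averaged 12.75 to 12.92 and 12.97 to 13.06. The part that the amount of muscle in each pool had in these differences was not tested. Marker lists of the other 9 tissues and cell types overlapped between the ages for 7, taken as list means. Testis markers were among these, at 12.90 to 13.09 and 12.97 to 13.01, but 6 of the 7 genes lay above 0, where 51.8% of all tested probe sets did. The median over the list was 0.20. Without the block 5 of 7 had an unadjusted p under 0.05, against 13.1% of all. The 1 gene below 0, the sperm protein gene *dj*, fell by 1.18 ± 0.07 (SE; limma adjusted p = 0.00347, and 0.0123 with the block). Glia markers averaged 10.79 to 10.94 at 10 days and 10.66 to 10.76 at 40 days. Of the 5 glia genes, *GLaz* gave -0.59 ± 0.11 (limma adjusted p = 0.144, and 0.0781 with the block). The others lay between -0.12 and 0.02, each with overlapping ages. The ovary list, mostly at the floor, averaged 3.11 to 3.14 and 3.14 to 3.18. Accessory gland markers overlapped, at 13.58 to 14.45 and 13.95 to 14.26, as did gut proteases at 13.87 to 14.35 and 13.91 to 14.54. The part of these tissues in the differences was not tested.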

How the data were processed

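The authors deposited log2 values made with GCRMA, per the submitters' processing notes, a method of background correction, normalization between arrays and summary by probe set. Not given in the sources used here were its version and filters. Scanner files and scan dates were not used here, and the number of arrays limits the precision. Probe sets were named through the array's gene table: 13333 had 1 gene, 390 several and 1408 none.

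Probe sets with a mean log2 of at least 4 were tested with limma 3.58.1 in R 4.3.3 (lmFit, eBayes with a trend, two-sided), with Benjamini-Hochberg adjustment over all 10286 and a threshold of 0.05. The fit without the block was also run on data simulated without any effect of replicate number, unlike the real samples, and its outcome is not given here. Tables and plots used Python 3.11.15, pandas 2.3.3 and matplotlib 3.10.9.

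The labels give replicate numbers without calling them pairs. With age means removed, same-numbered samples correlated at 0.707, 0.772 and 0.353, all over 0.1, so the numbers were taken to pair the samples. The fit without the block is given first.

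The members and lists were chosen with earlier results of these data known. All members are named, with up to 4 genes per list by smallest adjusted p and the 5 genes most like *fln*. The same was planned for *Mhc*, and was done for *Mf*, the member gene with the brightest probe set, after the values were seen. *Strn-Mlck*, *salm*, *Tm2*, *up*, *Zasp52*, *TpnC41C*, *elav*, *nSyb*, *brp*, *para* and *GLaz* are named as list members, and second probe sets beside the first. Promoter motifs were planned but not analysed here, and no sequences are shown.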

Additional observations from a re-analysis of the deposited data

How the results depend on the processing

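No member probe set was called under any of the 16 alternatives that kept probe sets apart, nor at the gene level: the count stayed at 0, and with the replicate block the lowest member adjusted p was 0.0514. The median member difference stayed between 0.12 and 0.24 over its 14 alternatives, and the *fln* contrast between -0.89 and -0.64 over its 15. The count of called probe sets over the whole array, 35, was 21 with a filter at a mean log2 of 6, 198 with the replicate block, 17 without both samples of number 2, and 16 to 32 with any 1 sample left out. In direction, the mean of all probe sets of *Mf* gave -0.016, as its construction joins opposite values. Without both samples of number 2, *sls* on 1634102_at gave -0.0040, *Myo10A* 0.018 and *Mhcl* -0.020, and the cause was not tested. With 1 sample left out, the sign of small differences turned for *Mlc2* (-0.11 to 0.019), *Mlc1* (-0.010 to 0.071), *sls* on 1634102_at (-0.031 to 0.28), *Myo10A* (-0.21 to 0.0058), *Myo28B1* (-0.19 to 0.58), *salm* (-0.0079 to 0.26) and *stv* (-0.10 to 0.027). *Act87E* was also called with no filter (limma adjusted p = 0.0342) and with array weights (0.0488). It was not called with any 1 sample left out (limma adjusted p from 0.175 to 0.327) or without both samples of number 2 (0.306). Other eBayes settings were not run for the median and the contrast, which they cannot change.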
